A study of Danio rerio with 9 samples.

Results

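Genes of the extracellular matrix, of its remodelling and of its cell-surface receptors were followed in eyes dissected from zebrafish embryos raised with or without ethanol. The members were the genes whose symbol begins with the prefix of a collagen chain, a laminin chain, a fibrillin, a fibulin, a matrix metalloproteinase, a tissue inhibitor of metalloproteinases, a lysyl oxidase-like enzyme, a thrombospondin or an integrin subunit, together with fn1a, fn1b and sparc. This gave 50 genes, covered by 60 probe sets, of 8793 genes named on the array. Where a gene had several probe sets, the brightest over the 9 arrays stood for it. A further 2 probe sets matched the rule only through a second symbol (col1a1b beside dcxr, timp4.3 beside syn2b) and were not assigned to either gene. Signals of different probe sets have no common scale, so levels are compared between arrays and not between genes.

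The 9 samples were total RNA from dissected eye tissue with 1 Affymetrix array each. They comprise an untreated sample of 24 hpf (hours post fertilization) and pairs of control and ethanol samples of 27, 30, 36 and 48 hpf. The 24 hpf sample, called untreated here, is titled pretreatment. The strain, the ethanol dose, further timing of the exposure and the number of embryos behind each sample are not stated by the labels. Groups follow the sample titles, and the treatment characteristic contradicts the title for the 30 hpf ethanol, 36 hpf control and 36 hpf ethanol arrays.

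The extracellular matrix of the developing eye includes the basement membranes around the lens and the retina, the vitreous, and the fibrils made by the mesenchyme and vessels around the optic cup. Basement membranes are built from laminin trimers and network-forming collagens, and fibrillar collagens form cables that associated collagens decorate. Integrins bind cells to laminin and fibronectin, metalloproteinases cut the matrix, and the tissue inhibitors restrain them.

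All 15 neural retina markers on the array were above the filter on low signals, which kept the upper 60% of probe sets by mean log2 value (a signal of about 22.7). Of 7 lens markers, 4 were above it. Markers of tissues beside the eye were measured too, with 12 of 13 for periocular mesenchyme and neural crest, 9 of 14 for blood and vessels, 6 of 17 for muscle and 17 of 22 for brain above the filter. The summed signal of the muscle markers was 4271 in the 48 hpf control and 639 to 1129 in the other 8 arrays. The summed signal of the vessel and blood markers was 3048 to 3834 in the control arrays and 3895 to 4956 in the ethanol arrays. The part of these tissues in the matrix results was not tested. In such samples, fewer cells of a type and less RNA per cell cannot be told apart.

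Of the 50 members, 27 were above the filter and could be tested. The other 23 had mean signals of 1.71 to 23.0, among them fn1b, col10a1a, col10a1b, col8a1a, itga2b, mmp9 and fbln1. Changes are differences of log2(signal + 5), which understate those of dim genes. Tests were made with limma across 9301 probe sets, with Benjamini-Hochberg adjustment. There were no replicates, so the spread behind a p-value is the one between stages or around a fitted line, part of which may be technical, and the number of arrays limits the precision.

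**Figure D1:**
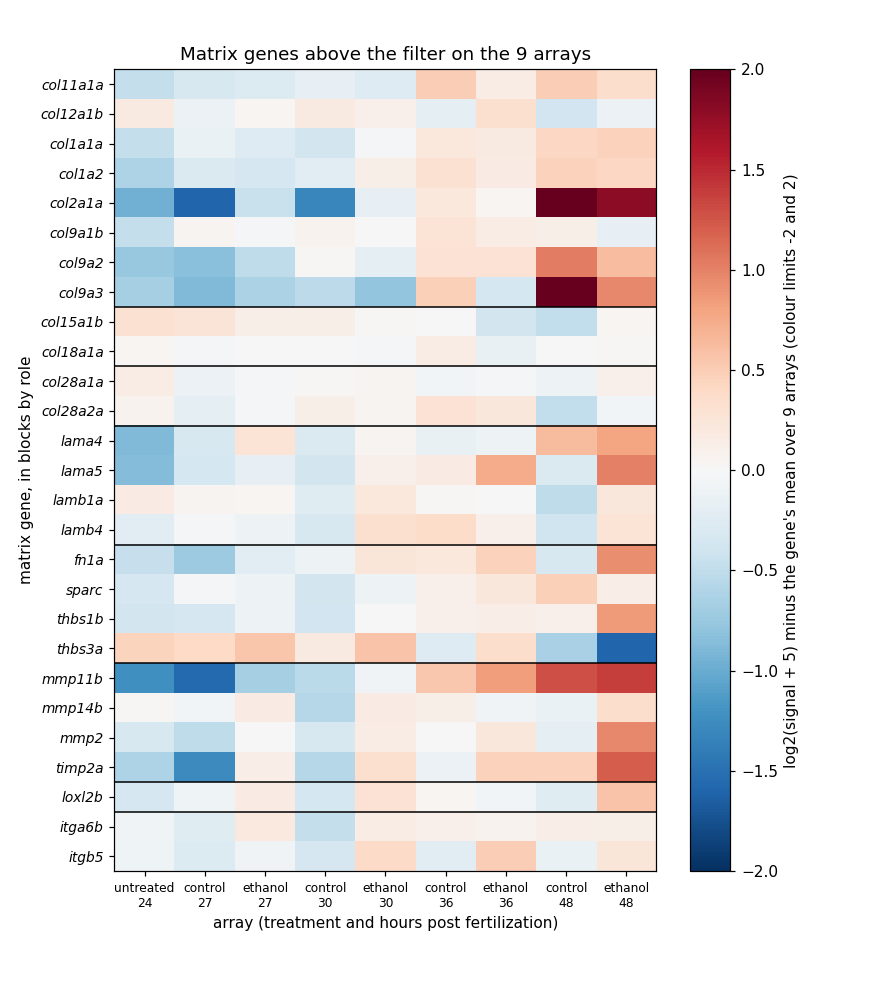
Heat map of the 27 matrix genes above the filter (vertical axis, in blocks by role) on the 9 arrays (horizontal axis, treatment and hpf). Colour is log2(signal + 5) minus the gene's own mean, and col2a1a, col9a3 and mmp11b run from blue at 24 to 30 hpf to red at 48 hpf, while thbs3a runs the other way.

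Of the 27 matrix genes above the filter, 13 rose with hpf over the 9 arrays, and 9 of these did so on the 5 untreated and control arrays alone. The steepest rises between 24 and 48 hpf were in col2a1a, the chain of type II collagen found in cartilage, notochord and vitreous, in col9a3, and in mmp11b, a stromelysin-type metalloproteinase. The gene thbs3a, a thrombospondin, fell. With the slope on hpf over 9 arrays and ethanol as a term, 6 of 27 members rose by at least 2-fold over 24 hours at an adjusted p under 0.05 (9.07% of all probe sets did), and 1 of 27 fell by as much (7.39% of all probe sets did). At any size of change, 13 of 27 rose (17.6% of all probe sets) and 1 fell (19.8% of all probe sets). On the untreated and control arrays alone, where 11.1% of all probe sets rose, lama5, mmp2, sparc and thbs1b did not pass. With arrays centred on their medians, where 13.5% rose, lama5, mmp2 and sparc did not. The 1 member falling at any size became 2 on the untreated and control arrays alone and 3 after centring. The member added on the untreated and control arrays was col15a1b or lamb1a. Those added after centring were among col12a1b, col15a1b and lamb1a. Beside thbs3a, only these fell at an unadjusted p under 0.05 in limma in those settings. The share of all probe sets falling at any size was not counted in those settings. The median change over 24 hours was 0.58 for the 27 members and -0.04 for all probe sets.

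Among the fibrillar and fibril-associated collagens, the signal of col2a1a was 144 at 24 hpf. At the later stages, in order, controls had 91.4, 112, 329 and 1523 and ethanol arrays 207, 252, 291 and 996. Both 48 hpf arrays stood far above the other 7. The fitted change over 24 hours was 3.34 ± 0.40 (log2, SE, 9 arrays; limma adjusted p = 9.79e-05), a 10.1-fold rise. In controls, the log2 step was 1.51 between 30 and 36 hpf and larger still after 36 hpf. Without the 48 hpf arrays the change, scaled to 24 hours from arrays of 24 to 36 hpf, was 2.22 with an adjusted p of 0.0698.

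Type IX collagen sits on the surface of type II fibrils and is a trimer of different chains. The chain gene col9a3 had a signal of 40.1 at 24 hpf, then 33.6, 45, 94.5 and 372 in controls and 41.3, 36.5, 51.3 and 134 in ethanol arrays at 27, 30, 36 and 48 hpf. It was lowest in the arrays up to 30 hpf, and the 48 hpf control was its highest array. Its change over 24 hours was 2.78 ± 0.31 (adjusted p = 6.96e-05). The chain gene col9a2 went from 89.6 at 24 hpf through 84.4, 157, 190.3 and 320.1 in controls, and stood at 107, 136, 190.2 and 239.9 in ethanol arrays. Its change was 1.60 ± 0.22 (adjusted p = 0.00025). The third chain gene, col9a1b, did not pass the test (0.18 ± 0.21, adjusted p = 0.537): its signal went from 165 at 24 hpf to 241 in the 27 hpf control and 253 in the 48 hpf control. The largest control step of col9a1b lay before 27 hpf (0.54). That of col9a3 lay after 36 hpf (1.92), the longest interval, with 0.99 between 30 and 36 hpf.

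In the fit over all arrays, the type I and type XI collagen genes rose by less than 2-fold over 24 hours. The gene col1a1a, for 1 of the chains of type I collagen of connective tissue, had a signal of 633 at 24 hpf, 806, 682, 1027 and 1183 in controls and 735, 872, 997 and 1212 in ethanol arrays. Its partner chain gene col1a2 had 457 at 24 hpf, 573, 598, 868 and 964 in controls and 558, 764, 788 and 941 in ethanol arrays. In both genes the 36 and 48 hpf arrays lay above all earlier ones. The changes were 0.83 ± 0.17 for col1a1a (adjusted p = 0.00254) and 0.90 ± 0.19 for col1a2 (adjusted p = 0.00286). A second probe set of each gene gave 0.94 and 0.93. The probe set for col1a1a is of the kind that may bind transcripts of several genes. The gene col11a1a, whose product nucleates and limits type II fibrils, went from 284 at 24 hpf to 565 in the 48 hpf control and 511 with ethanol. Its change was 0.92 ± 0.19 (adjusted p = 0.00262), and its largest control step was between 30 and 36 hpf (0.65). On the untreated and control arrays alone, the changes of col1a2 (1.05, limma adjusted p = 0.0173) and col11a1a (1.04, adjusted p = 0.0243) passed 2-fold. That of col1a1a (0.88, adjusted p = 0.0355) stayed under 2-fold. The signal of col12a1b, a collagen attached to type I fibrils, was 765 at 24 hpf, 626, 768, 594 and 519 in controls and 697, 726, 847 and 627 in ethanol arrays, with no change that passed (-0.38 ± 0.18, adjusted p = 0.119).

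**Figure D2:**
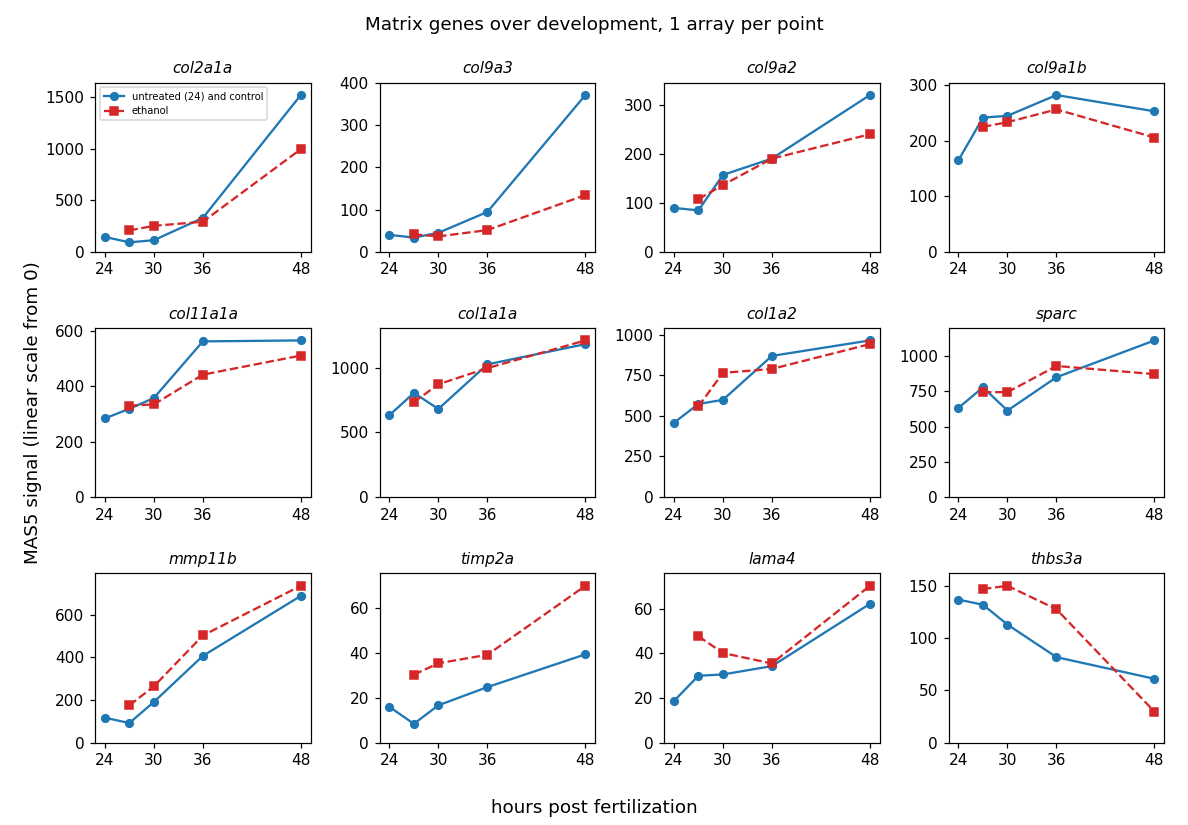
Signals of 12 matrix genes (vertical axes, MAS5 signal on a linear scale from 0) against hours post fertilization (horizontal axes), with 1 array per point, circles for the untreated and control arrays and squares for ethanol. In col2a1a and col9a3 the 48 hpf control reached 1523 and 372, against 996 and 134 with ethanol, whereas col1a1a stood at 1183 and 1212.

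Some collagens below the filter had their highest signals at 48 hpf. The gene col5a2a, for a chain of the type V collagen that seeds type I fibrils, had a signal of 0.773 to 13 in the first 7 arrays and 46.8 and 24.8 in the control and ethanol arrays at 48 hpf. A second, dimmer probe set of col5a2a stayed at 0.084 to 3.76 over the 9 arrays, with 2.98 and 3.76 at 48 hpf. The gene col6a3, for a chain of the beaded filaments of type VI collagen, had 5.96 at 24 hpf and 47.0 and 48.7 at 48 hpf. The gene thbs4b, a thrombospondin of muscle attachments in zebrafish, had 0.6 to 6.43 in the first 7 arrays and 40.0 and 11.4 at 48 hpf. The 48 hpf control was the highest array for col2a1a, col9a3, col5a2a and thbs4b, and also for col9a2, col11a1a, col1a2, sparc and col17a1b. It was highest too for the summed markers of muscle, of neural retina (6573, ethanol 6229) and of pigment cells and RPE (4381, ethanol 3860). What this shared rank reflects was not tested. When no filter was set, the fit called 11 of 50 members rising by at least 2-fold (8.8% of all probe sets) and 1 falling (4.93%), adding col5a2a, col6a3, thbs4b, col17a1b and lamc3.

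Of 6 basement membrane and network collagen genes, 2 were above the filter and neither passed the test. The gene col18a1a, whose product carries the endostatin fragment at its end, had signals of 563 at 24 hpf, 541, 544, 607 and 553 in controls and 551, 540.0, 492 and 559.7 in ethanol arrays, and a change of 0.03 ± 0.14 (adjusted p = 0.897). Its relative col15a1b went from 241 at 24 hpf through 232, 209, 191 and 136 in controls, and stood at 211, 197, 148 and 199 in ethanol arrays. The slope of col15a1b was -0.50 ± 0.20 (adjusted p = 0.0699). Among the other collagens, the type XXVIII gene col28a2a had 229 at 24 hpf, 189, 238, 267 and 154 in controls and 213, 226, 257 and 211 in ethanol arrays. Its relative col28a1a had 32.5 at 24 hpf, 26.1, 29.3, 27.7 and 26.6 in controls and 27.8, 30.1, 28.2 and 31.4 in ethanol arrays. Neither showed a slope that passed, and their groups overlapped.

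Of 7 laminin genes, 4 were above the filter. The gene lama4, for an alpha chain of vessel basement membranes, had a signal of 18.6 at 24 hpf, 29.9, 30.5, 34.2 and 62.2 in controls and 47.7, 40.1, 35.4 and 70.3 in ethanol arrays. It was lowest at 24 hpf and highest at 48 hpf, with a change of 1.05 ± 0.23 (adjusted p = 0.00435). Without the 48 hpf arrays that change was 0.48 with an adjusted p of 0.563, and it fell just under 2-fold when each array was centred on its median (0.90). The gene lama5, for an alpha chain of epithelial basement membranes, rose by 0.83 ± 0.27 (adjusted p = 0.0327) over all 9 arrays. On the untreated and control arrays alone its change was 0.48 (adjusted p = 0.36), and the call was also lost under centring (adjusted p = 0.073) and quantile normalization (adjusted p = 0.051). The beta chain genes lamb1a (205 to 343) and lamb4 (20.2 to 38.0) had no slope that passed over all 9 arrays. The gamma chain gene lamc1, which partners lamb1a in most embryonic laminins, was below the filter at 5.55 to 19.1.

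Among the remodelling genes, mmp11b had a signal of 117 at 24 hpf, 91.4, 191, 407 and 689.5 in controls and 175, 264, 503 and 737 in ethanol arrays. It increased at each interval from 27 hpf on in both groups, and its change was 2.60 ± 0.31 (adjusted p = 9.97e-05), a 6.07-fold rise. Without the 48 hpf arrays its slope was steeper, at 3.99 per 24 hours, as were those of col11a1a (1.69), col1a2 (1.55) and lama5 (2.09), which then passed 2-fold. The inhibitor gene timp2a rose by 1.34 ± 0.23 (adjusted p = 0.000831), and by 1.26 with an adjusted p of 0.138 without the 48 hpf arrays. The gene mmp2, for the gelatinase that cuts type IV collagen, rose by 0.61 ± 0.20 over all 9 arrays (adjusted p = 0.0354), but changed by 0.28 on the untreated and control arrays alone (adjusted p = 0.483). A dimmer probe set of mmp2 rose by 1.03 ± 0.24 over all 9 arrays (limma adjusted p = 0.00542). Its signal was 26.4 at 24 hpf and, at 48 hpf, 37.1 in the control and 91.4 with ethanol. The membrane-type gene mmp14b did not pass (0.08 ± 0.22). The genes mmp9, mmp13a, mmp14a and mmp17b stayed below the filter, with a highest signal of 39.1 for mmp14a in the 48 hpf ethanol array.

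The thrombospondins moved in opposite directions. The gene thbs3a had a signal of 137 at 24 hpf, 132, 113, 81.6 and 60.9 in controls and 147, 149.8, 127 and 29.5 in ethanol arrays. The controls decreased at every interval, and both 48 hpf arrays were lower than all earlier ones. Its change was -1.75 ± 0.30 (adjusted p = 0.000917). The gene thbs1b, of the thrombospondins that bind and activate latent Tgf-beta, rose by 0.77 ± 0.18 over all 9 arrays (adjusted p = 0.00503), with 0.55 on the untreated and control arrays alone (adjusted p = 0.134). The gene sparc, for a collagen-binding protein that acts in fibril assembly, had 634 at 24 hpf, 779, 615, 851 and 1113 in controls and 746, 745, 931 and 873 in ethanol arrays, and rose by 0.58 ± 0.18 (adjusted p = 0.0292). On the untreated and control arrays alone its change was 0.78 (adjusted p = 0.053). The fibronectin gene fn1a did not pass (0.68 ± 0.28, adjusted p = 0.0713), nor did the integrin genes itga6b (0.19 ± 0.19) and itgb5 (0.11 ± 0.19) or the cross-linking enzyme gene loxl2b (0.20 ± 0.20).

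**Figure D3:**
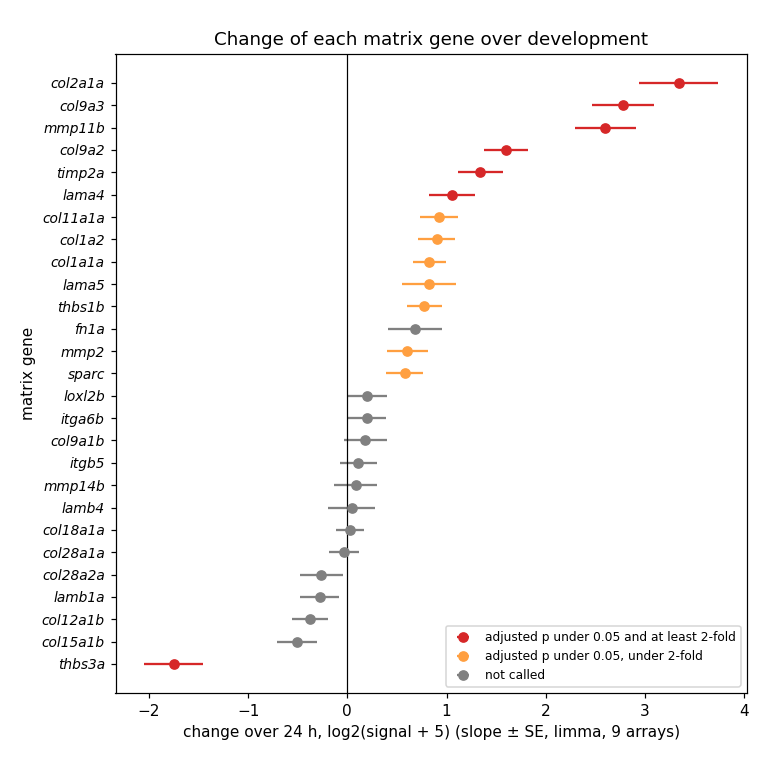
Fitted change over 24 hours (horizontal axis, log2(signal + 5), slope with SE from limma over 9 arrays) for the 27 matrix genes above the filter (vertical axis). Red points passed the test with at least 2-fold, orange points passed with less, and grey points did not pass, with col2a1a at 3.34 and thbs3a at -1.75 at the ends.

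The second comparison asked which matrix genes differed between ethanol and control eyes over the 4 stages with both arrays. The inhibitor gene timp2a was higher with ethanol at every stage and was the only member called. It was above the filter only through its ethanol arrays, as was fn1a: their mean log2 values over the untreated and control arrays, 4.58 and 4.56, lay under the floor of 4.79. With no filter timp2a had an adjusted p of 0.058. The basement membrane gene lama5, the gelatinase gene mmp2, the fibronectin gene fn1a and the integrin gene itgb5 also had higher signals at every stage without passing the adjusted test, and col9a3 had the lowest mean difference. Of 27 members, 20 had a mean difference above 0, against 55.6% of all probe sets, and the median was 0.24 against 0.04. With stage as a block and 3 residual degrees of freedom, 1 of 27 members was called (2.25% of all probe sets), 1 higher (1.62% of all probe sets) and 0 lower (0.624% of all probe sets). At an unadjusted p under 0.05, 8 members were higher (14.8% of all probe sets) and 1 was lower (9.15% of all probe sets). At all 4 stages, 9 members were higher (17.8% of all probe sets) and 1, col9a1b, was lower (14.4% of all probe sets).

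The counts above 0, of members and of all probe sets alike, and the calls over all probe sets depended on the scale. Centring each array on its median moved the median of all probe sets by -0.13. Relative to that shift, 15 of 27 members were above 0, against 36.1% of all probe sets, and under quantile normalization 19 were, against 48.1%. Over all probe sets, the calls as deposited were 151 higher and 58 lower, and after centring 139 higher and 371 lower.

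The product of timp2a inhibits metalloproteinases and, in mammals, also helps the membrane-type enzyme activate the product of mmp2. Its signal was 15.9 at 24 hpf, and at 27, 30, 36 and 48 hpf it was 8.32, 16.6, 24.7 and 39.2 in controls against 30.2, 35.3, 39.1 and 69.8 with ethanol. The ethanol array was brighter at each stage, and the 27 hpf ethanol array already exceeded the 36 hpf control. The differences were 1.40, 0.90, 0.57 and 0.76, with a mean of 0.91 ± 0.16 (SE over 4 stages; limma adjusted p = 0.0347). The call was lost under quantile normalization (0.78, adjusted p = 0.0709) and without the 27, 30 or 36 hpf pair (0.74 to 1.02, adjusted p of 0.0614 to 0.127). With groups taken from the treatment characteristic the mean was 0.53 and did not pass.

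The 2 probe sets of mmp2 gave different calls. The brighter one had 103 at 24 hpf, 89.7, 103, 131 and 113 in controls and 131, 145, 153 and 257 with ethanol. Its mean difference was 0.59 ± 0.17 (adjusted p = 0.0848), with 1.15 at 48 hpf. The dimmer one had 26.4 at 24 hpf, 17.3, 23.6, 26.9 and 37.1 in controls and 30.8, 42.9, 64.6 and 91.4 with ethanol. Its differences of 0.68, 0.74, 1.12 and 1.2 gave a mean of 0.94 ± 0.14, which passed (adjusted p = 0.0262). Averaging both, mmp2 was called at 0.76 (adjusted p = 0.0403). The related genes mmp11b (0.44 ± 0.15, adjusted p = 0.138) and mmp14b (0.31 ± 0.17, adjusted p = 0.285) did not pass, and the difference of mmp11b was 0.90 at 27 hpf and 0.10 at 48 hpf.

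**Figure D4:**
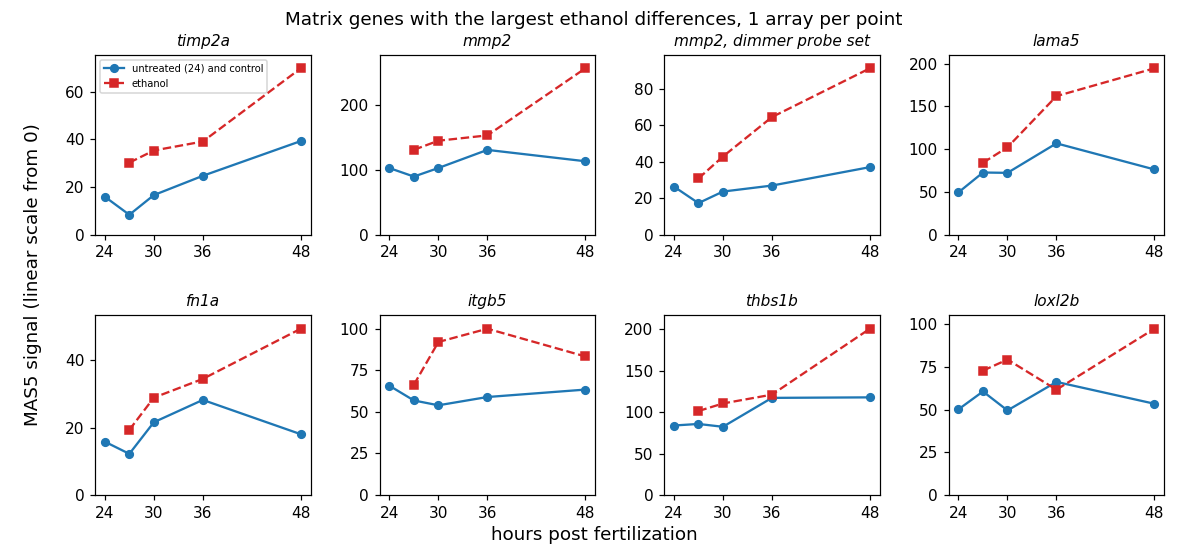
Signals of 7 matrix genes, with both probe sets of mmp2 (vertical axes, MAS5 signal on a linear scale from 0), against hours post fertilization (horizontal axes), 1 array per point, circles for untreated and control arrays and squares for ethanol. At 48 hpf the ethanol arrays stood at 69.8 against 39.2 for timp2a, 257 against 113 for mmp2 and 194 against 76.2 for lama5, and at 36 hpf loxl2b was lower with ethanol (61.8 against 66.3).

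The 4 laminin genes above the filter had positive mean ethanol differences, none of which passed the adjusted test. The signal of lama5 was 49.4 at 24 hpf, 72.6, 72.2, 107 and 76.2 in controls and 84.0, 102, 162 and 194 in ethanol arrays. The ethanol arrays increased at every interval while the control decreased after 36 hpf. Its mean difference was 0.64 ± 0.18 (adjusted p = 0.0892), with 0.20 at 27 hpf and 1.30 at 48 hpf. The signal of lamb1a was 330.4 at 24 hpf, 306, 247, 299 and 205 in controls and 302, 340.5, 293 and 343 in ethanol arrays, close in both groups at 27 and 36 hpf (0.28 ± 0.16, adjusted p = 0.32). For lama4 the largest difference was at 27 hpf (0.59), with a mean of 0.29 ± 0.14 (adjusted p = 0.243). A second, dimmer probe set of lama4, below the filter, had differences of 0.002, 0.61, 0.46 and -0.21 at 27, 30, 36 and 48 hpf. Below the filter, lamc1 had 5.55, 10.6, 10.2 and 9.09 in controls and 10.7, 18.1, 19.1 and 18.6 in ethanol arrays.

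Fibronectin is an early matrix protein that cells bind through integrins. The signal of fn1a was 15.8 at 24 hpf, 12.2, 21.6, 28.3 and 18.1 in controls and 19.4, 28.9, 34.5 and 49.4 in ethanol arrays. It was near the filter's floor in most arrays and brightest in the 48 hpf ethanol array. Its mean difference was 0.58 ± 0.18 (adjusted p = 0.101), with 1.24 at 48 hpf. The other probe sets of fn1a were below the filter. At 27, 30, 36 and 48 hpf, one with a mean signal of 10.7 had differences of -0.07, 0.22, 0.23 and 0.72. Another, with a mean signal of 3.46, had 0.16, 0.05, 0.05 and -0.04. Also below the filter was fn1b, with 13.3 at 24 hpf. Its later signals were 10.5, 8.18, 6.26 and 7.36 in controls and 8.13, 8.18, 6.24 and 11.2 in ethanol arrays. The gene itga5, for the fibronectin receptor's alpha chain, was below the filter too, at 5.47 to 9.89 in the controls and 6.49, 14.9, 10.2 and 23.0 in ethanol arrays.

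The integrin gene itgb5, whose product pairs with the alpha v chain, had a signal of 65.8 at 24 hpf, 56.9, 54.0, 59.0 and 63.5 in controls and 66.4, 92.2, 100.2 and 83.5 in ethanol arrays. Each ethanol array was above every control array. The mean difference was 0.50 ± 0.14 (adjusted p = 0.0847), and with groups from the treatment characteristic it was -0.05. The laminin receptor gene itga6b had 83.6 at 24 hpf, then control against ethanol 73.5 against 100.5 at 27 hpf and 61.2 against 98 at 30 hpf, but 94.7 against 92.3 at 36 hpf and 96.5 against 95.8 at 48 hpf (0.25 ± 0.15, adjusted p = 0.348). The gene loxl2b, for an enzyme that cross-links collagen, had 50.2 at 24 hpf, 60.7, 49.6, 66.3 and 53.5 in controls and 72.9, 79.4, 61.8 and 97.5 in ethanol arrays (0.40 ± 0.17, adjusted p = 0.193). The gene thbs1b had 84 at 24 hpf, 85.8, 82.4, 117 and 118 in controls and 101, 111, 121 and 201 in ethanol arrays, and a mean difference of 0.36 ± 0.15 (adjusted p = 0.187).

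Among the type II and type IX collagen genes, the ethanol difference was above 0 at 27 hpf and below 0 at 48 hpf in col2a1a, col9a2 and col9a3, whereas in col9a1b it was below 0 at every stage (-0.10, -0.07, -0.14 and -0.29). For col2a1a the difference was, in order of stage, 1.14, 1.14, -0.17 and -0.61, with a mean of 0.37 ± 0.29 (adjusted p = 0.466). For col9a3 it was 0.26, -0.27, -0.82 and -1.43, with a mean of -0.57 ± 0.24 (adjusted p = 0.202), and for col9a2 it was 0.33, -0.20, 0.00 and -0.41. Among the cartilage and notochord markers, 6 of 15 on the array were above the filter. Those below it, not tested, were sox9a, matn1, acanb, ntd5, tbxta, noto, shhb, ihha and ihhb. Of the 6 above it, matn4 and hapln1a were also on the list of proteoglycans and other matrix proteins. The 48 hpf signals of all 15 summed to 1418 (control) and 2417 (ethanol). All 6 above the filter had a mean ethanol difference above 0 (median 0.33), against 55.6% of all probe sets. Their median at 48 hpf was 0.63. After centring, 5 of the 6 were above 0, against 36.1% of all probe sets. The cartilage matrix gene matn1, below the filter and singled out after its values were seen, went the other way at 48 hpf, with 55.5 (control) and 6.99 (ethanol). The muscle markers summed to 4271 and 1129 on the same arrays. The part of these tissues in the collagen differences was not tested.

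The other 13 members had mean ethanol differences between -0.15 and 0.24. These included col1a1a (-0.13, 0.35, -0.04 and 0.03 at 27, 30, 36 and 48 hpf), col1a2 (-0.04, 0.35, -0.14 and -0.03), sparc (-0.06, 0.28, 0.13 and -0.35) and col18a1a (0.02, -0.01, -0.30 and 0.02). In thbs3a the ethanol array was higher by 0.15, 0.40 and 0.61 at 27, 30 and 36 hpf and lower by 0.93 at 48 hpf. For col12a1b the 36 hpf signals were 594 (control) and 847 (ethanol), and for col15a1b the 48 hpf signals were 136 and 199.

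**Figure D5:**
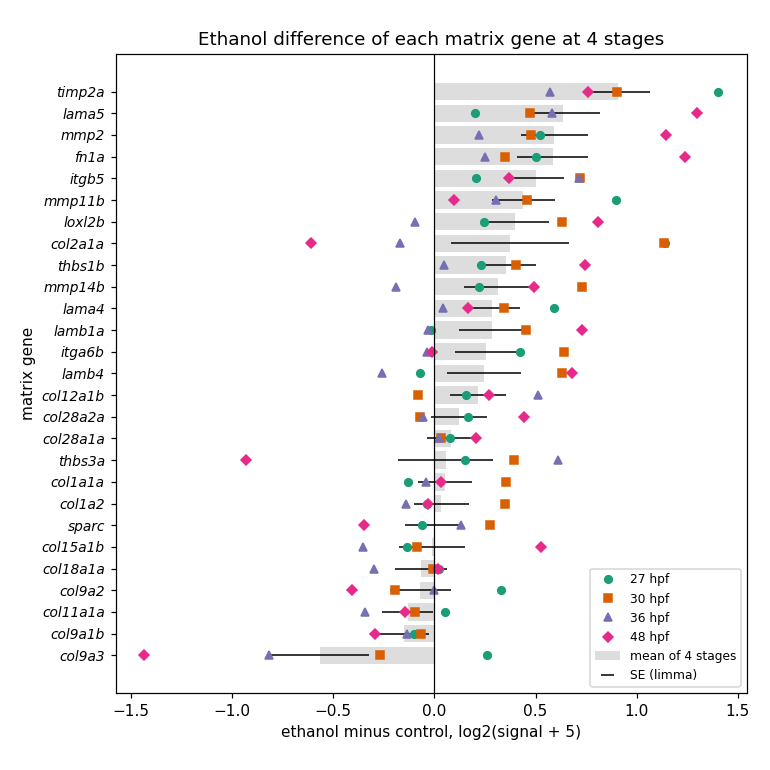
Ethanol minus control (horizontal axis, log2(signal + 5)) for the 27 matrix genes above the filter (vertical axis), with a symbol for each of the 4 stages, a bar for their mean and a line for limma's SE. All 4 symbols of timp2a, lama5, mmp2, fn1a and itgb5 lie above 0, and col9a3 and col2a1a spread from above 0 at 27 hpf to below 0 at 48 hpf.

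At single stages, differences of at least 2-fold with the brighter array above its own median were counted without a test. At 27 hpf there was 1 member higher, col2a1a (0.806% of all probe sets), and 0 lower (0.301%). At 30 hpf there was again 1 higher, col2a1a (3.06%), and 0 lower (0.333%). At 36 hpf no member was 2-fold higher (1.2%) or lower (0.215%). At 48 hpf 3 were higher, namely fn1a, lama5 and mmp2 (4.56%), and 1, col9a3, was lower (2.01%). Of these, fn1a was above the filter only through its ethanol arrays, so its place in the count rests partly on the values counted. Whether the slope on hpf differed between ethanol and control arrays was tested as an interaction over the 9 arrays. On simulated data this fit recovered 0% of planted changes of 1 (log2 over 24 hours) and 51.5% of those of 2. Not passing it therefore does not show that slopes were alike. Of 27 members, 0 passed in limma (0.118% of all probe sets), and 3 had an unadjusted p under 0.05 (12.7% of all probe sets). These were col9a3 (-1.37 ± 0.49 per 24 hours, adjusted p = 0.28), thbs3a (-1.38 ± 0.46, adjusted p = 0.234) and mmp2 (0.79 ± 0.34, adjusted p = 0.372).

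Other genes that make, modify or sense the matrix were read from lists beside the members. In the ethanol fit, 0 of 11 collagen folding and cross-linking genes passed (median 0.23), with fkbp10b, a collagen prolyl isomerase, at 0.44 ± 0.13. Of 9 proteoglycans and other matrix proteins 1 passed, higher (median 0.15), where 1.62% of all probe sets were called higher. It was the syndecan gene sdc2 (0.68 ± 0.14, adjusted p = 0.0482). Of 7 disintegrins, other matrix proteases and their inhibitors 1 passed, higher (median 0.24, 1.62% of all probe sets called higher). This was serpine2, for a serpin that inhibits thrombin and plasminogen activators, with 95.7, 124, 85.1 and 87.5 in controls and 186, 252, 261 and 214 with ethanol (1.18 ± 0.15, adjusted p = 0.0143). Of 14 genes of integrin linkage and focal adhesion 0 passed and all 14 were above 0 (median 0.27), against 55.6% of all probe sets (median 0.04). With arrays centred, 9 of the 14 were above 0, against 36.1% of all probe sets. Of 12 genes of Tgf-beta signalling 0 passed and all 12 were above 0, also after centring (median 0.27 before it). The connective tissue growth factor gene ccn2a had 122 in the control and 492 with ethanol at 48 hpf. Among 12 markers of periocular mesenchyme and neural crest 0 passed, 11 were above 0 and the median was 0.35. Their summed signal was 1812 to 2884 in controls and 2030 to 3766 with ethanol. Of 17 brain markers 16 were above 0 (median 0.59, 3 called higher), and of 9 blood and vessel markers 8 (median 0.36, 3 called higher). By stage, the median of the brain markers was -0.26 at 27 hpf and 0.92, 0.67 and 1.45 at 30, 36 and 48 hpf. Of 15 neural retina markers 5 were above 0 (median -0.09, 1 called lower). Over all probe sets 55.6% were above 0, 1.62% were called higher and 0.624% lower. After centring, 10 of the 12, 14 of the 17, 8 of the 9 and 3 of the 15 were above 0, against 36.1% of all probe sets. The filter used means over all 9 arrays, and any list or marker genes above it only through their ethanol arrays were not separated out. The part of these tissues in the matrix differences was not tested.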

How the data were processed

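Total RNA was labelled with biotin and hybridized by the Affymetrix protocol, per the labels. The values deposited by the authors are linear intensities computed with MAS5, per the submitters' processing notes. Their mean after trimming 2% at each end was 125 on every array, so they were used as deposited. Of 15617 probe sets, 115 controls were left out, and 10802 had 1 gene symbol in the platform annotation, 135 several and 4680 none given. Symbols were updated by gene identifier.

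Values became log2(signal + 5), and the upper 60% by mean were fitted in limma 3.58.1 (R 4.3.3; lmFit and eBayes, Benjamini-Hochberg threshold 0.05): ethanol with stage as a block on 8 arrays, and slope and interaction on 9. On simulated data with 200 planted log2 changes of 1, the ethanol fit recovered 79%, the slope fit 57.5% and the interaction fit 0%. For changes of 2 these were 98.5%, 96.5% and 51.5%. Recovery was counted by adjusted p alone, without the 2-fold limit that the slope calls also had to pass. Alternatives covered scaling, pseudocount, filter, labels, left-out stages and probe set averaging. No detection calls, genome or sequences were used.

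The members and lists were chosen with earlier results of these data known. Every member could be named. Fitted ethanol means are given from 0.25 on, a limit chosen after the values were seen. From other lists, genes among the 3 of largest absolute change were named. Cartilage and notochord markers were also named for lying below the filter or on a second list.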

Additional observations from a re-analysis of the deposited data

Results flagged for a closer look

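Ethanol and control arrays differed in opposite directions at different stages, by at least 1.5-fold each way, in 2 of the 27 members above the filter; that limit was chosen after the values were seen. For col2a1a the ethanol array was higher by 1.14 at 27 hpf, and the difference at 48 hpf was -0.61 (log2). For thbs3a it was higher by 0.61 at 36 hpf, with -0.93 at 48 hpf. With 1 array per condition, the difference between those stages was not tested. The interaction with hpf did not pass for col2a1a (adjusted p = 0.472) or thbs3a (adjusted p = 0.234).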

How the results depend on the processing

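The calls on ethanol rested on few arrays. The single member call, timp2a, was lost under quantile normalization, with no filter, on the 27 and 48 hpf pairs alone and with the treatment characteristic. With the upper 30% of probe sets timp2a was not tested and 0 members were called. At an unadjusted p under 0.05, quantile normalization left 6 members and 2134 of 9301 probe sets. With no filter there were 12 of 50 members and 3010 of 15502 probe sets, and with the upper 30% 2 members and 1207 of 4651 probe sets. The 27 and 48 hpf pairs left 4 members and 873 of 9301 probe sets, and the treatment characteristic 0 members and 100 of 9301. The member calls became 2 with probe sets averaged, and 0 to 1 when a stage was left out. Over all probe sets the 209 calls became 510 with arrays centred on the median, 23 under quantile normalization, 327 with pseudocount 20, 67 with no filter, 4 to 182 without a stage, 0 on the 27 and 48 hpf pairs (873 unadjusted) and 0 with the treatment characteristic (100 unadjusted). That label turned the mean difference of itgb5 to -0.047. Among the 13 members with small mean differences, 11 changed sign under at least 1 of 13 alternatives.

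For development, the 7 members called became 12 with no filter and 3 with the upper 30%, where fewer were tested, and 6 to 8 without a stage; over all probe sets 1531 became 624 with the upper 30%. The 13 members rising at any size (17.6% of all probe sets) became 21 with no filter (17.3%), 8 with the upper 30% (14.1%) and 10 after centring (13.5%). They became 9 on the untreated and control arrays alone (11.1%). Without a stage they were 7 to 11 (7.47% to 16.4%), with 7 without 48 hpf (7.47%). For the interaction, 11 calls over all probe sets became 31 after centring, 17 under quantile normalization, 7 and 23 with pseudocounts 1 and 20, and 0 with no filter (1804 unadjusted). Centring also left 0 members 2-fold apart at 27 hpf and 0 at 30 hpf. Other causes were not tested. No paired analysis by replicate number was possible because each condition had 1 array.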

Other observations

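Matrix-related genes beside the members also changed over development. The testican gene spock3 rose by 1.53 over 24 hours (adjusted p = 0.000435 in limma) and adam23a, of the disintegrin family, by 1.85 (adjusted p = 8.09e-05). Of 12 genes of Tgf-beta signalling, 3 rose by at least 2-fold over the 9 arrays (9.07% of all probe sets), namely ccn2a (2.01), ccn1 (1.35) and the inhibitory Smad gene smad7 (2.01), and 0 fell. On the untreated and control arrays alone, smad7 changed by 2.12 (adjusted p = 0.00129), ccn2a by 1.03 (adjusted p = 0.0444) and ccn1 by 0.35 (adjusted p = 0.396). The 48 hpf ethanol array had the highest signals of ccn2a (492, control 122) and ccn1 (351, control 89.4). None of the 11 collagen folding genes or 14 focal adhesion genes passed both the test and the 2-fold limit.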
